A study of Mus musculus with 21 samples.

Results

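Liver makes new fatty acids from citrate through a short chain of cytosolic enzymes, and 10 genes of that chain and its transcriptional control were followed across 21 mouse livers: the regulators Srebf1 and Mlxipl, the enzymes Fasn, Acaca, Acacb, Acly, Acss2 and Me1, the lipogenic nuclear protein gene Thrsp, and the citrate carrier gene Slc25a1. They were chosen by name from knowledge of the pathway, with earlier results of these data known. All 10 were found among the 55418 gene symbols counted, and all 10 were among the 15677 genes with enough reads to test.

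RNA was sequenced from PBS-perfused whole liver of mice in 4 groups. Wild-type mice (WT) and mice with Mboat7 deleted in hepatocytes (KO) were kept on chow (6 WT and 7 KO livers, mice 10 weeks old) or were given a high-fat diet with little methionine and a choline deficiency (HFMCD, 4 WT and 4 KO livers). HFMCD was fed for 6 weeks from an age of 6 to 8 weeks, so those mice were 12 to 14 weeks old at the end, and the effect of diet cannot be told apart from that of age or of the separate ranges of animal numbers. The driver of the deletion, the exons removed, the strain, the sex, and the feeding state and hour at collection are not given in the sources used here. Mboat7 encodes an acyltransferase of the liver that adds arachidonic acid to lysophosphatidylinositol.

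Fatty acid synthesis runs from citrate, which Slc25a1 carries out of the mitochondrion, to acetyl-CoA by ATP citrate lyase (Acly), to malonyl-CoA by acetyl-CoA carboxylase (Acaca in the cytosol), and to palmitate by fatty acid synthase (Fasn). Acss2 makes acetyl-CoA from acetate, malic enzyme (Me1) supplies NADPH, and Acacb makes malonyl-CoA at the mitochondrial surface, where it restrains fatty acid oxidation. SREBP-1, the product of Srebf1, responds to insulin and is released by proteolysis, and ChREBP, the product of Mlxipl, responds to carbohydrate; both bind promoters of this pathway, so a transcript level of either is not its activity.

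Promoters of 6 of these genes are shown because their transcripts moved in 3 ways under the diet: Srebf1 and Thrsp were higher, Mlxipl and Me1 were lower, and Fasn and Slc25a1 were not called. Each line holds 250 bases before and 50 bases from a RefSeq transcription start on GRCm38.p6, read on the gene's strand. The windows are chr11:60210422-60210721 on the minus strand for Srebf1, chr5:135089640-135089939 on the plus strand for Mlxipl, chr11:120824498-120824797 on the minus strand for Fasn, chr9:86695865-86696164 on the minus strand for Me1, chr7:97417501-97417800 on the minus strand for Thrsp, and chr16:17928170-17928469 on the minus strand for Slc25a1. Where RefSeq lists more than 1 start (3 for Srebf1, 2 for Mlxipl and 2 for Me1), 1 is shown. The Mlxipl window not shown is chr5:135106641-135106940. Counts per gene symbol do not separate transcripts from different starts. Capitals mark matches, on either strand, to the E-box CACGTG, the NF-Y box CCAAT, the GC box GGGCGG, the sterol response core TCACNCCAC, and a liver X receptor element searched as TGACC and GTAAC 4 bases apart.
Srebf1: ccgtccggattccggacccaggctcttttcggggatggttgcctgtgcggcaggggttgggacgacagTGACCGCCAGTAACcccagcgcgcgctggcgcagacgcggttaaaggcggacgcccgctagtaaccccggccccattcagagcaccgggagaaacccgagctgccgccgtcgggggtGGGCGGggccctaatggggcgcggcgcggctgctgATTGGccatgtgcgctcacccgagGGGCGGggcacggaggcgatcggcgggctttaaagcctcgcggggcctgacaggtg
Mlxipl: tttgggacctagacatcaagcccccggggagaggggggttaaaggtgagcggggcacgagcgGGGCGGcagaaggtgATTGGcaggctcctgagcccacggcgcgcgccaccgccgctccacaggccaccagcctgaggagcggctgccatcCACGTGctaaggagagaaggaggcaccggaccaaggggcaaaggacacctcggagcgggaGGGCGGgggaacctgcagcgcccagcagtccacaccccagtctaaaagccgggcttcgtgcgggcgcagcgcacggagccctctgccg
Fasn: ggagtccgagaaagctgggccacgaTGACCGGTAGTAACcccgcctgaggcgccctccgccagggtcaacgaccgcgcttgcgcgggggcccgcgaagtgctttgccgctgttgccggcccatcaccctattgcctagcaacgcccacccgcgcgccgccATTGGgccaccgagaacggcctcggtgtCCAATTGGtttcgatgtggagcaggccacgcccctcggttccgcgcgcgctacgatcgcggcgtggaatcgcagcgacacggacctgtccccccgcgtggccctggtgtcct
Me1: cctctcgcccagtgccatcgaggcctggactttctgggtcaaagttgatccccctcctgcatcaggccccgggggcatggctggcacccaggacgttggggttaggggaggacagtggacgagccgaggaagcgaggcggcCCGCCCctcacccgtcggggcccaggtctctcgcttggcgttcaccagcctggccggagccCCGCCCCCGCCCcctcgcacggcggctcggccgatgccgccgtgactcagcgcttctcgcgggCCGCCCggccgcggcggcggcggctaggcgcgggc
Thrsp: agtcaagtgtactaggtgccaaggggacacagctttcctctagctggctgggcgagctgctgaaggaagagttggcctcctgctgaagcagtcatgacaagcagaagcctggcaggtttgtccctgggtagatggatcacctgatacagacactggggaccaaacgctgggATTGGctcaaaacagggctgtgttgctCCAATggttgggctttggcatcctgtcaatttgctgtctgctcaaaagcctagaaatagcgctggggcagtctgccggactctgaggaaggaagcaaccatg
Slc25a1: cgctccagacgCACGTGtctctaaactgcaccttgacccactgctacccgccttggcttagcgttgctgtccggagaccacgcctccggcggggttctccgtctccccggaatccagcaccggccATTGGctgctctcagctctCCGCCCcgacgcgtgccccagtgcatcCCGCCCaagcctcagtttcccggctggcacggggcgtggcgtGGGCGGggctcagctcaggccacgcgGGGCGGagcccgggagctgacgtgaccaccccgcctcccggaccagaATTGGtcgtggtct

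RefSeq gave 14 promoter entries for the 10 genes. The only entries for Acaca (chr11:84195188-84195487) and Acacb (chr5:114165268-114165567) lie inside the genes, away from the annotated gene starts. Sequence at those gene starts was not searched. The NF-Y box, a CCAAT sequence often found beside SREBP sites, was in at least 1 entry of 9 of the 10 genes, all but Acaca, against 37.4% of all 32851 mouse promoter entries and 41.1% of all 27025 genes. The E-box, the repeated unit of a carbohydrate response element, was in Mlxipl and Slc25a1 only, against 8.09% of all genes. A sterol response core was in the second Mlxipl entry alone, against 1.44% of all genes. The GC box was in 6 of the 10 genes, against 38.2% of all genes. The liver X receptor spacing, a search added after the sequences had been read, was present in the printed Srebf1 and Fasn windows and in 14 of all 32851 entries (0.0426%). These matches describe letters within 300 bases; sequence further out was not searched, and a match does not show binding. Srebf1 and Fasn, which share that spacing, took different courses on HFMCD, as the values that follow show.

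All are protein-coding genes, placed on GRCm38 by GENCODE M21: Srebf1 at chr11:60199089-60222581 (minus strand), Mlxipl at chr5:135089890-135138382 (plus strand), Fasn at chr11:120805846-120824547 (minus strand), Acaca at chr11:84129672-84401651 (plus strand), Acacb at chr5:114146535-114250761 (plus strand). The others are Acly at chr11:100476353-100528000 (minus strand), Acss2 at chr2:155517948-155585724 (plus strand), Me1 at chr9:86581371-86695953 (minus strand), Thrsp at chr7:97412938-97417730 (minus strand), Slc25a1 at chr16:17925223-17928219 (minus strand). Exons of Mlxipl, Srebf1 and Me1 overlap an opposite-strand gene by 235, 109 and 30 bases, and without a stated strand setting reads there cannot be told apart.

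Libraries held 17502231 to 25822972 counts, and each of the 10 genes had from 119 to 9710 counts in every library. Levels are CPM, the usual counts relative to the library total, here scaled by TMM. Mboat7 itself had a mean of 36.2 CPM ± 2.72 in the WT and 21.3 CPM ± 1.77 in the KO livers on chow (SD, n = 6 and 7), and of 36.3 CPM ± 1.47 and 18.9 CPM ± 2.24 on HFMCD (SD, n = 4 each); the KO livers did not overlap the WT livers on either diet. Hepatocyte markers summed to a median of 112056, 110385, 102349 and 94786 CPM in WT chow, KO chow, WT HFMCD and KO HFMCD livers, with 8 of 8 markers detected in every group. On HFMCD the summed markers of other liver cells were higher: macrophage markers had medians of 208 and 236 CPM on chow (WT and KO) and 1129 and 1207 CPM on HFMCD, stellate cell markers 244 and 312 CPM against 1275 and 1563 CPM, and cholangiocyte markers 56.1 and 57.1 CPM against 202 and 578 CPM. In bulk liver, fewer hepatocytes and less RNA per hepatocyte cannot be told apart. Among chow livers, the fat cell markers Adipoq and Plin1 reached 1 CPM or more only in WT replicate 3 and KO replicates 1 and 7 (at most 4.21 and 5.03 CPM), with Lep at 0 in every group, and Dmbt1, a gene of gland mucosa, reached 27.6 to 95.6 CPM in those 3 and in WT replicate 5. KO chow replicate 7 also held skeletal muscle RNA (Acta1 at 418, Ttn at 331, Ckm at 185 and Myh4 at 11.8 CPM), while the 4 muscle markers summed to at most 1.06 CPM in any liver of the other groups.

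On chow, in WT livers, the levels per kilobase of exon spanned more than an order of magnitude. Slc25a1 stood at a mean of 67.4 CPM per kb ± 6.71 (SD, n = 6), followed by Mlxipl at 46.8 CPM per kb ± 10.96 and Me1 at 37.8 CPM per kb ± 9.38. Acly followed at 13.2, Fasn at 9.97, Acacb at 9.82, Thrsp at 6.81, Acss2 at 6.10, Srebf1 at 4.67 and Acaca at 2.10 CPM per kb. Ranges over the 6 livers left gaps between Slc25a1 and Mlxipl, between Me1 and Acly, and between Srebf1 and Acaca; all other neighbours in that order overlapped. In KO livers on HFMCD the order was Slc25a1 (64.0 CPM per kb), Acly (18.7), Srebf1 (17.4), Thrsp (16.4), Mlxipl (9.29), Acss2 (8.85), Fasn (8.69), Me1 (7.53), Acacb (2.77) and Acaca (1.67). Exon lengths are the union of all annotated exons, so genes with long rare isoforms read low on this scale.

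**Figure D1:**
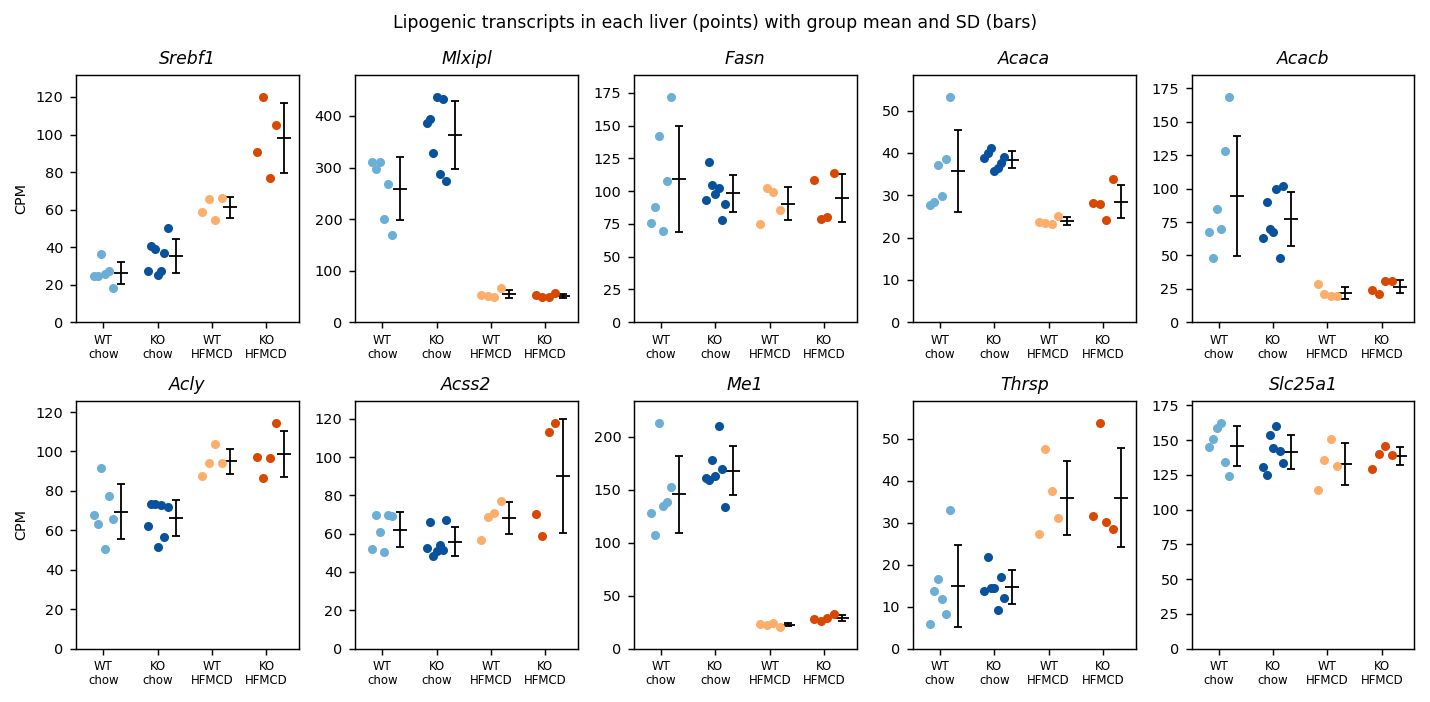
CPM (y axis, from 0) of each of the 10 transcripts in WT and KO livers on chow and HFMCD (x axis; 6, 7, 4 and 4 livers); points are livers and bars the group mean and SD. Mlxipl, Me1 and Acacb sit far lower on HFMCD, Srebf1 sits higher, and Slc25a1 stays between 114 and 162 CPM in every liver.

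The question of the diet contrasts is which lipogenic transcripts differ between HFMCD and chow livers of 1 genotype. The regulators moved in opposite directions, and the enzymes did not move as a block: in WT livers 3 of the 10 transcripts rose (Srebf1, Thrsp and Acly), 4 fell (Me1, Mlxipl, Acacb and Acaca) and 3 were not called (Fasn, Slc25a1 and Acss2). In KO livers 4 rose (Srebf1, Thrsp, Acss2 and Acly), the same 4 fell, and Fasn and Slc25a1 were not called. Calls are at an adjusted p under 0.05 from edgeR's quasi-likelihood test with Benjamini-Hochberg adjustment over all 15677 genes. The diet altered most of the transcriptome: 62.5% of all genes were called in WT livers (29.0% higher and 33.6% lower) and 69.7% in KO livers (33.7% higher and 36.0% lower), so 7 and 8 of 10 is near that background.

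Srebf1, whose product drives the fatty acid synthesis genes, measured 24.8, 24.9, 36.3, 25.9, 27.6 and 18.5 CPM in WT chow livers and 58.5, 65.5, 54.6 and 66.4 CPM in WT HFMCD livers. In KO livers it measured 25.1 to 49.9 CPM on chow (median 37.0 CPM) and 90.9, 120.0, 76.9 and 105 CPM on HFMCD. Every HFMCD liver was above every chow liver. The log2 fold change was 1.22 (SE 0.18, adjusted p = 6.46e-06, edgeR) in WT and 1.48 (SE 0.17, adjusted p = 1.7e-07) in KO livers.

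Mlxipl, which encodes ChREBP, went the other way. It measured 169 to 311 CPM in WT chow livers (median 283 CPM) and 52.0, 50.5, 48.5 and 65.7 CPM in WT HFMCD livers. KO livers measured 274 to 437 CPM on chow (median 386 CPM) and 52.5, 48.2, 48.8 and 56.4 CPM on HFMCD. No HFMCD liver came near the chow range, and the log2 fold change was -2.26 (SE 0.17, adjusted p = 3.02e-10, edgeR) in WT and -2.82 (SE 0.18, adjusted p = 5.99e-12) in KO livers. Per kilobase of exon, the Mlxipl level was 7.85 to 12.7 times the Srebf1 level in WT chow livers and 5.58 to 17.7 times in KO chow livers. On HFMCD that ratio was 0.785 to 1.01 in WT and 0.409 to 0.645 in KO livers, so the order of the regulators' transcripts had turned in all 4 KO livers and in WT livers stood near 1.

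**Figure D2:**
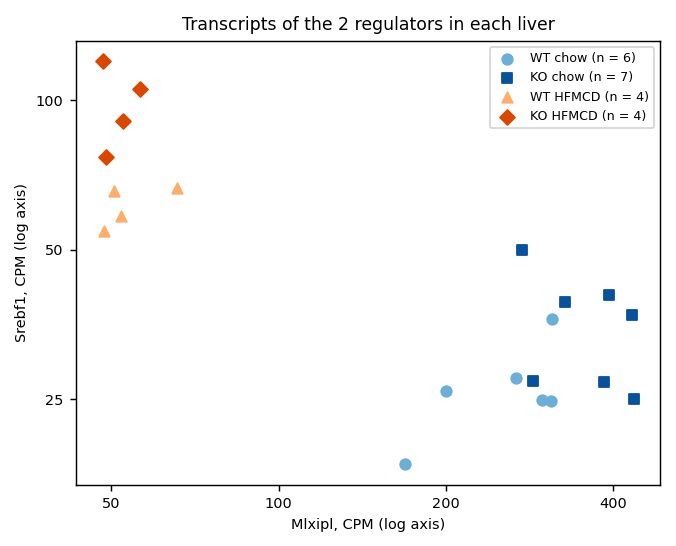
Srebf1 (y axis) against Mlxipl (x axis) in CPM, both on log axes, with 1 point per liver of the 4 groups. HFMCD livers lie at the upper left (Mlxipl at 48.2 to 65.7 CPM) and chow livers at the lower right (Mlxipl at 169 CPM or more), and on HFMCD the KO livers lie above the WT livers in Srebf1.

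Among the suppliers of carbon, Acly rose modestly. It measured 67.7, 63.4, 91.7, 50.6, 77.6 and 65.6 CPM in WT chow livers and 87.7, 94.3, 103.5 and 94.3 CPM in WT HFMCD livers; WT chow replicate 3 alone lay inside the HFMCD range. The log2 fold change was 0.45 (SE 0.13, adjusted p = 0.00345, edgeR) in WT and 0.58 (SE 0.12, adjusted p = 0.000203) in KO livers, whose diets did not overlap. Acss2 measured 48.2 to 67.3 CPM in KO chow livers and 70.1, 59.0, 113 and 118 CPM in KO HFMCD livers, with replicates 3 and 4 far above the other two. Its log2 fold change in KO livers was 0.69 (SE 0.16, adjusted p = 0.000514, edgeR). In WT livers the Acss2 log2 fold change was 0.14 (SE 0.16, adjusted p = 0.475), and exons of Acss2 lie over Acss2os, Ggt7 and Gss on the other strand for 927 bases. Slc25a1 was the steadiest of the 10: its means were 146, 141, 133 and 139 CPM in WT chow, KO chow, WT HFMCD and KO HFMCD livers, and its diet log2 fold changes were -0.14 (SE 0.09, interval of 2 SE from -0.31 to 0.04) in WT and -0.03 (SE 0.09, -0.20 to 0.14) in KO livers.

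Both carboxylases fell, by different amounts. Acacb measured 48.2 to 169 CPM in WT chow livers and 28.6, 21.3, 19.3 and 19.3 CPM in WT HFMCD livers, a log2 fold change of -2.10 (SE 0.31, adjusted p = 1.23e-05, edgeR). In KO livers it went from 48.4 to 102 CPM on chow to 23.8, 21.1, 31.2 and 30.5 CPM on HFMCD, a log2 fold change of -1.53 (SE 0.30, adjusted p = 0.000169). Diets did not overlap in either genotype. Acaca measured 27.6, 28.4, 37.1, 29.8, 38.6 and 53.2 CPM in WT chow livers and 23.7, 23.4, 23.3 and 25.2 CPM in WT HFMCD livers. Its log2 fold change was -0.58 (SE 0.14, adjusted p = 0.000679) in WT and -0.43 (SE 0.13, adjusted p = 0.00523) in KO livers, but with libraries scaled on hepatocyte markers it was -0.23 (adjusted p = 0.131) in WT and 0.04 (adjusted p = 0.809) in KO livers, where the sign turned.

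Fasn, the enzyme that builds palmitate, did not pass the test in either genotype. WT chow livers measured 75.4, 87.7, 142, 69.8, 108 and 172 CPM and WT HFMCD livers 74.8, 102, 99.4 and 85.9 CPM, entirely within the chow range. KO livers measured 77.8 to 122 CPM on chow and 108, 78.9, 80.0 and 114 CPM on HFMCD. The log2 fold changes were -0.27 (SE 0.21, interval of 2 SE from -0.68 to 0.15) in WT and -0.05 (SE 0.20, -0.45 to 0.35) in KO livers, intervals that leave out a fall as large as that of Acacb. The highest Fasn, Acaca, Acacb and Thrsp values on chow were all from WT replicate 6 (172, 53.2, 169 and 33.1 CPM), which also had the lowest Srebf1 and Mlxipl of all chow livers.

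Me1 showed the largest fall in WT livers. It measured 128, 107, 213, 134, 138 and 153 CPM in WT chow livers and 22.9, 22.3, 24.0 and 20.4 CPM in WT HFMCD livers, a log2 fold change of -2.70 (SE 0.15, adjusted p = 1.17e-12, edgeR). KO livers went from 134 to 210 CPM on chow to 28.3, 25.8, 29.0 and 32.8 CPM on HFMCD, a log2 fold change of -2.53 (SE 0.15, adjusted p = 1.16e-12). Me1 ranked 69 of 15677 genes by p in WT livers. Thrsp, which encodes Spot 14, a protein induced by thyroid hormone and carbohydrate in liver, rose instead. It measured 5.81, 13.7, 16.6, 11.9, 8.31 and 33.1 CPM in WT chow livers and 27.4, 47.7, 37.6 and 31.3 CPM in WT HFMCD livers, with WT chow replicate 6 inside the HFMCD range. Its log2 fold change was 1.27 (SE 0.35, adjusted p = 0.00437) in WT and 1.29 (SE 0.34, adjusted p = 0.00244) in KO livers.

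Livers of the diets did not overlap for 5 of the 10 genes in WT (Srebf1, Mlxipl, Acaca, Acacb and Me1), against 47.2% of all genes, and for 7 of the 10 in KO (these 5, Acly and Thrsp), against 53.0%. The scaling sets where the centre of the diet contrasts lies: on hepatocyte markers, an alternative added after the data had been seen, the median log2 fold change of all genes was 0.29 in WT and 0.44 in KO livers, against -0.05 and -0.02 with TMM. On that scale Srebf1, Thrsp and Acly rose and Mlxipl, Me1 and Acacb fell as before. Acss2 passed the test in WT livers as well (0.49, adjusted p = 0.0163), and Fasn (0.43, adjusted p = 0.0494) and Slc25a1 (0.44, adjusted p = 0.000151) in KO livers stood at the median of all genes.

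**Figure D3:**
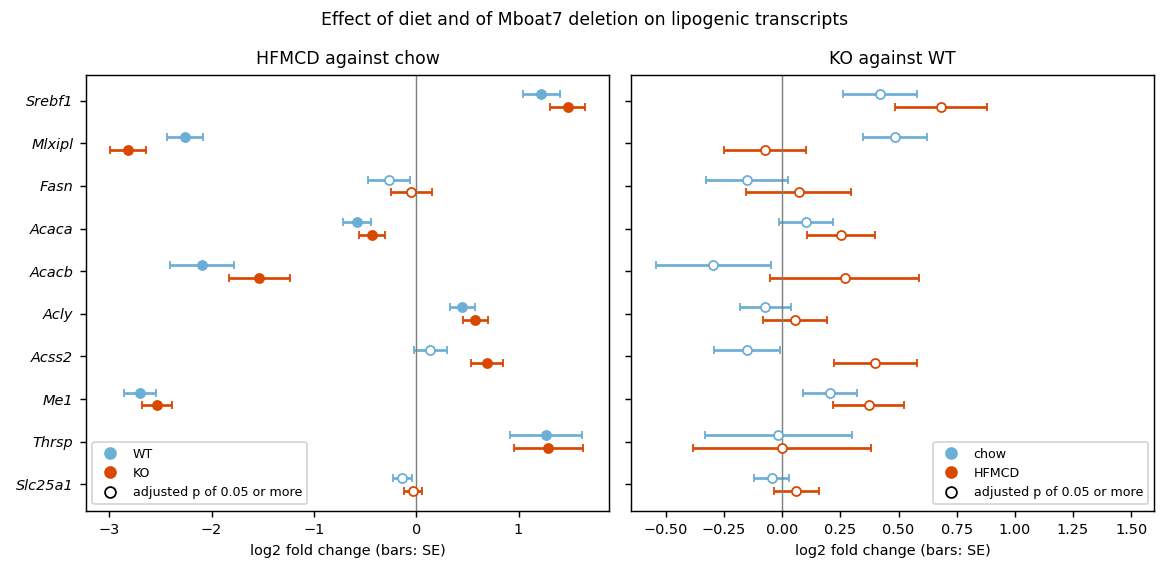
Log2 fold change (x axis) of each of the 10 transcripts (y axis) for HFMCD against chow in WT and KO livers (left) and for KO against WT on chow and HFMCD (right); bars are SE, and open points did not pass an adjusted p of 0.05. Diet effects reach -2.82 for Mlxipl and 1.48 for Srebf1, and all 20 genotype effects are open.

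The KO contrasts ask whether loss of hepatocyte Mboat7 goes with different lipogenic transcript levels on each diet. On chow, 0 of the 10 were called by edgeR, DESeq2 called 1 (Mlxipl) and limma-voom 0. Of all genes, edgeR called 2.17%. An unadjusted edgeR p under 0.05 was found for 2 of the 10 (Mlxipl and Srebf1). The same held for 2806 of all 15677 genes, a share near that of the 10. Median log2 fold change was -0.03 over the 10 and 0.01 over all genes, and livers of the genotypes overlapped for all 10. Mlxipl had means of 259 CPM ± 60.7 in the 6 WT livers and 363 CPM ± 66.5 (SD) in the 7 KO livers, a log2 fold change of 0.48 (SE 0.14, adjusted p = 0.0656, edgeR). Srebf1 averaged 26.3 CPM ± 5.78 (SD, n = 6) and 35.1 CPM ± 9.11 (SD, n = 7), a log2 fold change of 0.42 (SE 0.16, adjusted p = 0.168). The enzymes and the carrier ran from -0.30 (Acacb, SE 0.25) to 0.20 (Me1, SE 0.12), and Fasn stood at -0.15 (interval of 2 SE from -0.51 to 0.20).

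The chow calls changed with single livers. Mlxipl passed the test without WT replicate 3 (0.54, adjusted p = 0.0371), without KO replicate 5 (0.53, adjusted p = 0.0418), without KO replicate 7 (0.54, adjusted p = 0.0351) and with DESeq2 (0.49, adjusted p = 0.0199). Me1 passed without WT replicate 3 (0.34, adjusted p = 0.0438) and without the 4 Dmbt1-rich chow livers (0.43, adjusted p = 0.0453). WT replicate 3 had the highest Me1 (213 CPM), Acly (91.7 CPM) and Srebf1 (36.3 CPM) of the WT chow livers. Its Mlxipl (311 CPM) was also the highest of them, just above WT replicate 1 (310 CPM). WT replicate 3 was 1 of the 3 livers with Adipoq and Plin1 above 1 CPM. KO replicate 7, the liver with muscle RNA, had the highest Srebf1 (49.9 CPM) and the lowest Mlxipl (274 CPM) and Me1 (134 CPM) of the KO chow livers, and without it the Srebf1 log2 fold change was 0.31. The part of fat or muscle tissue in these values was not tested.

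On HFMCD, 0 of the 10 were called by edgeR, and DESeq2 and limma-voom called 0. Of all genes, edgeR called 0.319%. An unadjusted edgeR p under 0.05 was found for 3 of the 10 (Srebf1, Me1 and Acss2) and for 1562 of all 15677 genes. Srebf1 was higher in each of the 4 KO livers (76.9 to 120.0 CPM) than in any of the 4 WT livers (54.6 to 66.4 CPM), a log2 fold change of 0.68 (SE 0.20, adjusted p = 0.176, edgeR). Me1 also did not overlap (25.8 to 32.8 CPM in KO and 20.4 to 24.0 CPM in WT livers), with a log2 fold change of 0.37 (SE 0.15, adjusted p = 0.402). Those 2 of 10 not overlapping and higher in KO compare with 4.96% of all genes. Acss2 had a log2 fold change of 0.40 (SE 0.18, adjusted p = 0.456), with KO replicates 3 and 4 highest. For 9 of the 10 the log2 fold change was above 0, the smallest of these being Thrsp at 0.00041 (-0.00176 with RLE scaling), and Mlxipl, at -0.07, was 0.10 with hepatocyte-marker scaling; the median was 0.16, against 0.01 over all genes.

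The Srebf1 call on HFMCD depended on the fit. It passed with only the 8 HFMCD livers fitted (0.67, adjusted p = 0.0155), without the 4 Dmbt1-rich chow livers (0.68, adjusted p = 0.0351) and with hepatocyte-marker scaling (0.85, adjusted p = 0.049), and over all 18 alternatives the adjusted p ran from 0.0155 to 0.413. KO HFMCD livers also held more cholangiocyte marker RNA (538 to 789 CPM summed, against 192 to 234 CPM in WT). All 8 cholangiocyte markers were detected. With TMM scaling 5 of them were called higher, and with RLE or upper-quartile scaling 2 were. The part of these markers in the Srebf1 difference was not tested.

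Whether the KO effect differed between the diets was tested as an interaction. EdgeR called 0 of all genes (0%; 1581 at an unadjusted p under 0.05) and so 0 of the 10; 2 of the 10 had an unadjusted p under 0.05, and DESeq2 (97 genes called in all) and limma-voom (10 in all) called 0 of the 10. Mlxipl had the lowest p, with a difference of -0.56 (SE 0.22, adjusted p = 0.395): it was 0.48 on chow and -0.07 on HFMCD. Acss2 differed by 0.55 (SE 0.23, adjusted p = 0.405), from -0.15 on chow to 0.40 on HFMCD. The diet contrasts share their livers with these KO contrasts.

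Neighbouring steps of the pathway were counted over 9 lists of genes named from textbook knowledge, with earlier results of these data known. Each count with TMM scaling is to be read against all genes. Of these, 29.0% rose and 33.6% fell in WT and 33.7% rose and 36.0% fell in KO livers. A list whose counts lie near those shares shows nothing of its own. Counts with hepatocyte-marker scaling have no such share beside them here. That scaling moved the median log2 fold change of all genes to 0.29 in WT and 0.44 in KO livers. More rising and fewer falling genes on it are therefore no result about a list. Of 12 genes that feed NADPH and citrate, 6 rose and 1 fell in WT livers, and 7 rose and 1 fell in KO livers. G6pdx, which opens the pentose phosphate route to NADPH, had log2 fold changes of 2.38 (SE 0.13) in WT and 2.25 (SE 0.13) in KO livers, Pgd, its partner dehydrogenase, 1.44 (SE 0.08) and 1.54 (SE 0.08), and the mitochondrial malic enzyme gene Me2 1.78 (SE 0.18) and 2.20 (SE 0.17). These are opposite in sign to Me1, which is 1 of the sources of NADPH in the cytosol and not the only one. Beside them stand the macrophage and stellate cell sums given above, whose part was not tested. Of 11 cholesterol synthesis genes under SREBP-2, 8 rose in WT and 6 in KO livers and 0 fell, led by Idi1 (3.10, SE 0.32, and 3.65, SE 0.32) and Sqle (2.12, SE 0.22, and 1.95, SE 0.21).

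The SREBP list held, besides genes that process or sense SREBP, Srebf2 itself and genes of other transcription factors. Its genes went both ways: 2 of 10 rose and 3 fell in WT, and 2 rose and 4 fell in KO livers. With hepatocyte-marker scaling 6 and 7 rose and 0 fell. Srebf2 had log2 fold changes of 0.63 (SE 0.13) and 0.76 (SE 0.13) in WT and KO livers, and Insig1, which holds SREBP in the endoplasmic reticulum, 0.82 (SE 0.20) in WT livers. Of 11 partners and targets of ChREBP, 6 fell and 1 rose in WT, 8 fell and 1 rose in KO livers, and with hepatocyte-marker scaling 3 and 2 fell and 2 and 3 rose. Tkfc, of fructose metabolism, had a log2 fold change of -1.27 (SE 0.17) in WT livers, and Slc2a2, the liver glucose transporter gene, 0.82 (SE 0.15) in KO livers. Genes of the insulin and feeding response fell in 8 of 10 cases in WT and 6 of 10 in KO livers with 0 rising, among them Insr (-0.73, SE 0.09, and -0.75, SE 0.09), Irs1 (-0.81, SE 0.14, and -1.22, SE 0.14) and Pck1 (-1.55, SE 0.25, and -2.25, SE 0.26); with hepatocyte-marker scaling 5 and 4 fell and 0 and 1 rose.

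Of 8 genes that control acetyl-CoA carboxylase, 1 rose and 4 fell in WT and 3 rose and 3 fell in KO livers, and with hepatocyte-marker scaling 4 and 5 rose and 2 and 1 fell. Stk11, the kinase upstream of AMPK, had log2 fold changes of -0.60 (SE 0.08) and -0.67 (SE 0.08), and Mid1ip1, a relative of Thrsp that promotes carboxylase polymers, 0.62 (SE 0.17) in KO livers. Among desaturation and elongation genes 5 of 11 rose and 4 fell in WT, and 4 rose and 4 fell in KO livers; with hepatocyte-marker scaling 6 and 7 rose and 3 and 2 fell. Scd2 and Elovl1 rose (1.44, SE 0.21, and 0.93, SE 0.08, in WT), while Scd1, the main liver stearoyl-CoA desaturase and a classic partner of Fasn, fell in WT livers by 3.42 on the log2 scale (SE 0.40). Genes of glycerolipid synthesis fell in 4 of 11 cases in WT and 6 of 11 in KO livers with 0 rising, led by Lpin1 (-3.57, SE 0.66, and -3.23, SE 0.64); with hepatocyte-marker scaling 4 and 5 fell and 2 and 5 rose. In the circadian clock list 5 of 12 fell in WT, and 3 fell and 1 rose in KO livers, while with hepatocyte-marker scaling 2 fell in each and 0 and 2 rose. Cry1 had -0.77 (SE 0.17) and -1.35 (SE 0.17). Dbp in KO livers (2.36, SE 0.78, adjusted p = 0.012, edgeR) was no longer called without KO HFMCD replicate 2 (0.81, adjusted p = 0.335). Per2 in WT livers (-1.30, SE 0.50, adjusted p = 0.0294) was lost without WT chow replicate 2 or 6 or WT HFMCD replicate 1, 3 or 4, where the adjusted p was 0.0529 to 0.0819.

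**Figure D4:**
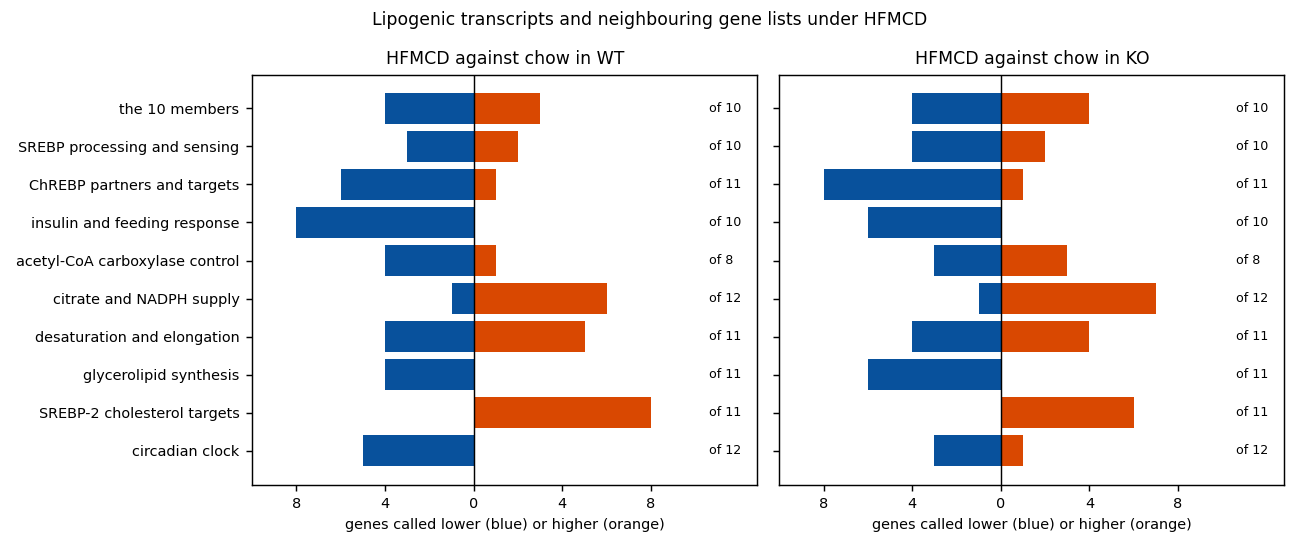
Number of genes called higher (orange, to the right) or lower (blue, to the left) on HFMCD than on chow in WT and KO livers for the 10 lipogenic genes and 9 neighbouring lists, with the number tested at the right. SREBP-2 targets and the NADPH and citrate list point mostly up, and the insulin and glycerolipid lists point only down with TMM scaling.

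Between genotypes, Pcx and Scd1 of these lists were called. Pcx, which encodes pyruvate carboxylase, measured 595 to 1038 CPM in WT chow livers (median 806 CPM) and 420.3 to 674 CPM in KO chow livers (median 579 CPM), so the genotypes overlapped. It had a log2 fold change of -0.52 (SE 0.12, adjusted p = 0.0317, edgeR) in KO chow livers, lost without WT chow replicate 4, 5 or 6 or KO chow replicate 1, 4 or 6 (adjusted p up to 0.15 over the 23 alternatives).

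Scd1 on HFMCD measured 142, 122, 176 and 196 CPM in WT and 667, 295, 1419.9 and 1765 CPM in KO livers. All KO livers exceeded all WT livers, by a log2 fold change of 2.70 (SE 0.40, adjusted p = 0.0101, edgeR), while Fasn in the same livers differed by 0.07 (SE 0.23). The Scd1 call was lost without WT HFMCD replicate 1 (2.65, adjusted p = 0.0749) or 2 (2.60, adjusted p = 0.0739) and with only the HFMCD livers fitted (2.69, adjusted p = 0.08). On chow Scd1 had means of 1707 CPM ± 370.0 in the 6 WT livers and 2808 CPM ± 771 (SD) in the 7 KO livers.

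Within a diet, the levels of the regulators were set against those of the other genes. Over the 13 chow livers 17 relations were computed, and 0 passed an adjusted p of 0.05. Mlxipl and Acacb had the lowest p (Pearson r = -0.62, permutation p = 0.0257, adjusted p = 0.436; Spearman rho = -0.60, permutation p = 0.0334, adjusted p = 0.479), with r = -0.55 without the 2 livers farthest from the Mlxipl median and r = -0.64 for deviations from the genotype means. Srebf1 and Fasn had r = -0.12 (permutation p = 0.705) and rho = 0.17 (permutation p = 0.578), and r = -0.18 without the 2 farthest livers. Over the 8 HFMCD livers 0 of 17 relations passed an adjusted p of 0.05. Srebf1 and Acaca had the lowest p (Pearson r = 0.82, exact permutation p = 0.00893, adjusted p = 0.152; Spearman rho = 0.88, exact permutation p = 0.00724, adjusted p = 0.123), with r = 0.83 without the 2 livers farthest from the Srebf1 median. Srebf1 levels of WT and KO livers did not overlap on HFMCD, so that r joins a difference between 2 genotypes of 4 livers with the spread inside each; for deviations from the genotype means r was 0.62. Srebf1 and Me1 had r = 0.66 (exact permutation p = 0.0807, adjusted p = 0.686) and r = -0.40 for those deviations. The relations of Mlxipl over the 8 HFMCD livers had r from -0.44 to 0.26 with an exact permutation adjusted p of 0.904.

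Genes outside the 10 whose log2 CPM followed the mean of the 8 enzyme, carrier and Thrsp transcripts most closely differed between the diets. Over the 13 chow livers these were Gabpa (r = 0.93), Herpud2 (0.90), Afg3l2 (0.89), Lats1 (0.88) and Tlk2 (0.88), with r between -0.18 and 0.48 over the 8 HFMCD livers. Over the 8 HFMCD livers they were Cdc42 (0.98), Arhgap15 (0.96), Jpt2 (0.95), Smc3 (0.95) and Aida (0.95), with r between -0.63 and 0.64 over the chow livers. They were picked from all genes as the highest over few livers, and no p is given.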

How the data were processed

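Whole liver RNA of 21 mice was sequenced. The authors deposited 1 table of raw counts per gene symbol for each library; CASAVA 2.17, STAR 2.6.1d, featureCounts 1.6.1 and GRCm38 are named, per the submitters' processing notes, with no role for each, and the strand setting is not given in the sources used here. All 55418 symbols were found in GENCODE M21 (GRCm38), which gave exon lengths and overlaps.

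EdgeR 4.0.16 in R 4.3.3 was used: filterByExpr by group left 15677 genes, libraries were scaled by TMM, and 1 quasi-likelihood model with 4 group means was fitted to all 21 libraries, with two-sided tests of 5 contrasts adjusted by Benjamini-Hochberg over all genes. The SE of a log2 fold change was taken from its F statistic (the change over root F). Log2 CPM used a prior count of 2. DESeq2 1.42.0 and limma-voom with sample quality weights (limma 3.58.1, called limma-voom throughout) were alternatives. So were RLE and upper-quartile scaling, no filter, and a filter at 1 CPM in 4 libraries. Other fits used only the groups compared, or left out each library in turn or chow livers rich in Dmbt1. The hepatocyte-marker scaling was added after the data had been seen. The edgeR fit was tested on simulated counts. None of the 48 pairs of libraries within a group were identical, and p-values measure the spread between these livers.

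The genes and lists were chosen with earlier results of these data known. All 10 genes were named in every contrast; of each list, up to 4 called genes with the smallest p could be named, and some list genes are not reported here. Correlations used 100000 permutations on chow and all pairings on HFMCD.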

Additional observations from a re-analysis of the deposited data

Results flagged for a closer look

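Thrsp in KO HFMCD replicate 2 stood at 53.7 CPM, apart from the other 3 KO livers on that diet at 28.5, 30.1 and 31.7 CPM; the gap to the nearest was 0.835 of the group's range, against a limit of 0.829 for 4 samples. It was the 1 such liver among 40 tests (10 genes in 4 groups), and chance flags about 1 in 20 groups. Without that liver the Thrsp log2 fold change of HFMCD against chow in KO livers was 1.04 (adjusted p = 0.0167, edgeR) in place of 1.29, and that of KO against WT on HFMCD was -0.26 (adjusted p = 0.918) in place of 0.00041.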

How the results depend on the processing

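The diet calls kept their count within 1.5 times under every alternative run: 7 of the 10 in WT livers in all 20, and 8 or 9 in KO livers in all 21. Hepatocyte-marker scaling turned the sign in KO livers of Fasn (0.43), Acaca (0.0355), Slc25a1 (0.44), Scap (0.0208), Usf1 (0.0452), Rxra (0.14) and Prkaa2 (0.022), and in WT livers of Rxra (0.0148), Prkag1 (0.0358), Prkaa2 (0.00198) and Clock (0.0214) and of the uncalled Fasn (0.09) and Slc25a1 (0.21); it moves the centre of all genes by construction.

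Genotype counts were fragile. For KO against WT on chow, DESeq2 and leaving out the 4 Dmbt1-rich livers each called 1 of the 10, and leaving out 1 library called 0 to 2 (1 or 2 without WT chow replicate 3, KO chow replicate 5 or KO chow replicate 7). Over all genes, in place of 340 calls, DESeq2 gave 705, limma-voom 113, only the chow libraries 2, KO chow 1 and 7 left out 144, the 4 Dmbt1-rich livers left out 189, hepatocyte-marker scaling 153, and single libraries left out 49 to 611 (over 1.5 times away for WT chow replicates 3, 4, 5 and 6 and KO chow replicates 1, 3, 4 and 6). For KO against WT on HFMCD, only the HFMCD libraries, the 4 Dmbt1-rich livers left out and hepatocyte-marker scaling each called 1 of the 10 (Srebf1), and leaving out 1 library called 0. Over all genes, in place of 50 calls, DESeq2 gave 193, limma-voom 321, RLE 32, upper quartile 28, no filter 28, only the HFMCD libraries 296, KO chow 1 and 7 left out 141, the 4 Dmbt1-rich livers left out 175, hepatocyte-marker scaling 179, and single libraries left out 1 to 16. For the difference between diets, in place of 0, DESeq2 gave 97, limma-voom 10, no filter 5, KO chow 1 and 7 left out 84, the 4 Dmbt1-rich livers left out 62, hepatocyte-marker scaling 13, and single libraries left out 0 to 8, with 0 of the 10 in each. The cause was not tested. No paired analysis was possible because the labels number each animal once, so that no number is shared between groups; the replicate numbers printed here only name livers. Genotype signs of transcripts near 0 (Thrsp, Fasn, Slc25a1, Acly, and Mlxipl on HFMCD) turned under some of these settings.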
